A study of Mus musculus with 10 samples.

Results

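Eukaryotic translation initiation factors, the eIF proteins that bring an mRNA, the initiator tRNA and the ribosome together, were described here as a family of 40 genes in the liver of mice with Dicer1 deleted there. The members were the genes of the array's probe table whose symbol starts with Eif and a digit 1 to 6. The eIF2alpha kinase genes, the Argonaute genes with the former symbol Eif2c, and Eif2s3x and Eif2s3y were left out. A gene with several probe sets was read from the brightest of them, and the 40 members stood among 12366 genes tested. The rule did not use the comparison between the groups. A further 6 probe sets carried an initiation factor symbol together with another gene's symbol and were not named. Several factor genes looked for were not among the 40 members: Eif1, Eif2s1, Eif3g, Eif4a3, Eif4g1 and Eif4ebp3. Statements on a complex therefore cover only its measured genes.

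Mutant livers came from 5 mice with floxed alleles of Dicer on both chromosomes and a Cre transgene (DicerloxP/loxP;Afp-Cre+). That Cre is driven by regulatory sequence of Afp, the alpha-fetoprotein gene, a gene of fetal hepatocytes. Control livers came from 5 mice labelled as controls, whose alleles the labels do not give further. All animals were 28 days old, of mixed strain and fasted for 5 hours, and each liver sample gave 1 array of amplified, biotin-labelled total RNA. Values are log2 units as deposited, differences are mutant minus control, and a gene was called at a limma p-value below 0.05 after Benjamini-Hochberg adjustment over all 12366 genes.

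Dicer1 itself stood at 5.94, 5.60, 5.42, 5.94 and 5.84 in mutant livers, against 8.07, 8.10, 7.99, 8.08 and 8.04 in control livers on its first probe set. All 5 mutant arrays were low on it, with a difference of -2.31. The other Dicer1 probe set, with the higher mean over all arrays, showed a smaller difference of -1.03. Its means were 7.06 in mutant livers and 8.08 in control livers, and the groups did not overlap. Array medians ran from 6.40 to 6.67, pairs of arrays correlated between 0.970 and 0.993, and each group held 3 arrays with Y-linked signal. Mutant replicate 5 lay at -9.50 on the first principal component (50.4% of the variance), between the other 4 mutants at 23.5 to 47.3 and the controls at -31.8 to -21.0. Markers of hepatocytes were high in both groups, with 0 of 7 called and list means from 14.67 to 14.98 in mutant livers and from 14.74 to 15.05 in control livers. Their differences ran from -0.09 to 0.18, the lowest being that of Apoa1, whose groups did not overlap. Alb, Ttr and Apoa1 lay close to 16.65, the highest value of any probe set. Bulk liver RNA was measured, so fewer cells of a type and less RNA per cell cannot be told apart.

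Initiation begins when eIF2, loaded with GTP, carries the initiator tRNA to the small ribosomal subunit, where eIF1, eIF1A, eIF3 and eIF5 also bind. The cap of the mRNA is bound by eIF4E, held by the scaffold eIF4G beside the helicase eIF4A, and the small subunit scans to the start codon. Activity is further set by inhibitors and by phosphorylation: the 4E-BP proteins keep eIF4E from eIF4G, and phosphorylation of eIF2 blocks its recharging by eIF2B. Liver devotes much of its protein synthesis to secreted plasma proteins, and feeding and fasting change the phosphorylation of these regulators, which arrays do not measure.

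Among initiation factor genes, each call was a decrease in mutant liver, most of them by small amounts. Of the 40 members, 13 were called lower, 0 were called higher and 27 were not called. Over all 12366 genes tested, 11.5% were called lower and 8.62% higher, or 20.1% in either direction, against 32.5% of the members called lower. By limma 28 of the 40 had an unadjusted p below 0.05, beside 4310 of all 12366 genes. The difference was negative for 34 members and positive for 6, and negative for 54.8% of all genes. The median difference of the members was -0.22 on the log2 scale, beside -0.01 over all genes. At least 0.5 on the log2 scale separated the groups for 6 members (15%), against 19.4% of all genes.

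**Figure D1:**
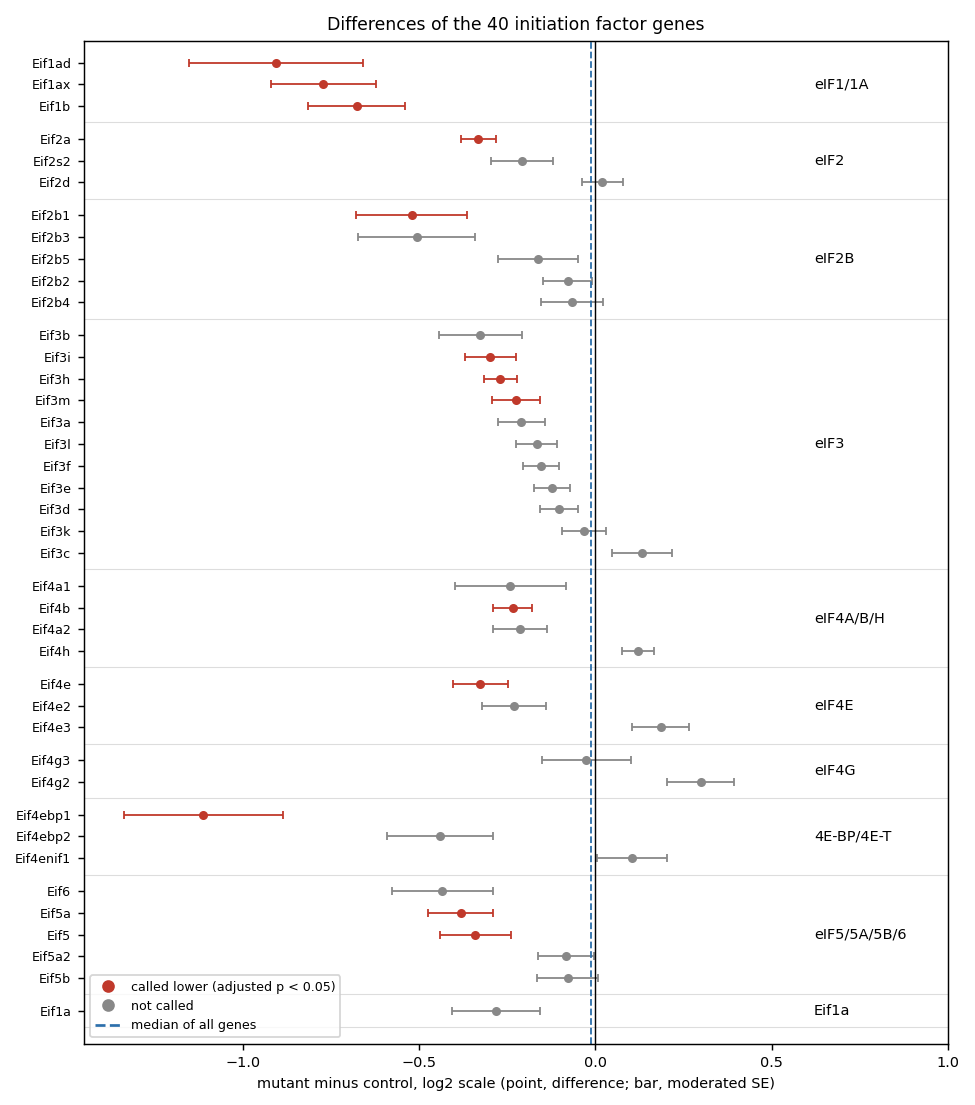
Difference between 5 mutant and 5 control livers on the log2 scale (x axis) for each of the 40 initiation factor genes (rows, by complex), with the moderated standard error as a bar and the median of all genes as a dashed line. The 13 genes called lower are red, Eif4ebp1 lies farthest left at -1.11, and the 6 positive differences reach 0.30 for Eif4g2.

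**Figure D2:**
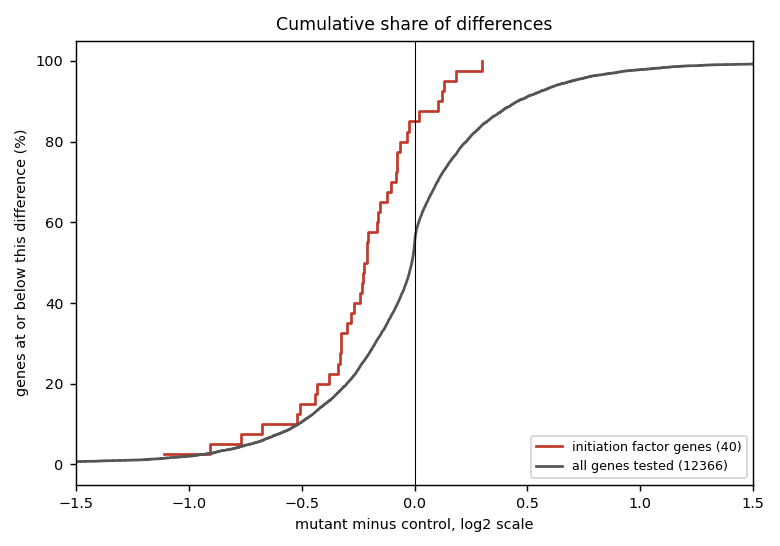
Percentage of genes (y axis) at or below each difference between mutant and control livers on the log2 scale (x axis), for the 40 initiation factor genes and for all 12366 genes tested, without the far tails. The red line of the initiation factors crosses 0 at 85% and the grey line of all genes at 54.8%.

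Each mutant array showed the shift. The median over the 40 members, each taken relative to its control mean, was -0.23, -0.26, -0.20, -0.15 and -0.14 in mutant replicates 1 to 5, against 0.01, -0.03, -0.03, 0.06 and -0.02 in control replicates 1 to 5. The groups did not overlap on this median, and the same median over all genes lay between -0.04 and 0.03 on every array. Groups of arrays did not overlap for 12 members, all lower in mutant liver, which is 30% of the members, while mutants lay wholly below controls for 6.99% of all genes and wholly above for 6.17%. The 12 were Eif1ax, Eif1b, Eif2a, Eif3a, Eif3h, Eif3i, Eif3l, Eif4b, Eif4e, Eif4ebp1, Eif5a and Eif6.

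**Figure D3:**
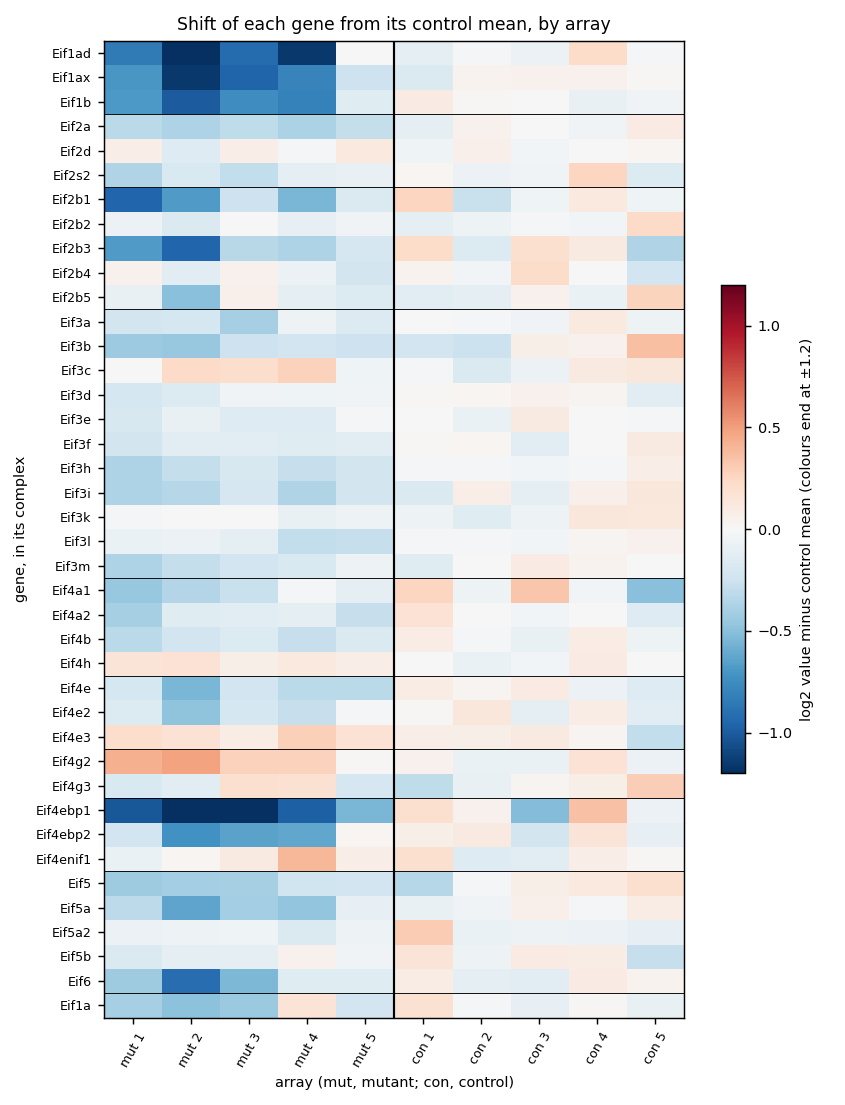
Log2 value of each initiation factor gene (rows, with lines between complexes) minus its control mean on each array (columns, 5 mutant arrays left of 5 control arrays). Blue, meaning lower, fills most of the mutant columns, while Eif4g2, Eif4e3 and Eif4h are mostly red there.

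Markers of other liver cells moved on the same arrays, most of them upward. Of 11 measured Kupffer cell and macrophage markers 8 were higher and 0 lower, with list means from 9.67 to 10.23 in mutant livers and from 8.65 to 9.71 in control livers. Of 9 stellate cell and matrix markers 5 were higher and 0 lower, with list means from 9.92 to 10.47 in mutant livers and from 9.45 to 9.77 in control livers. Of 8 sinusoidal endothelial markers 0 were higher and 1, Lyve1, was lower, with list means from 8.80 to 9.00 in mutant livers and from 8.87 to 9.35 in control livers. Biliary and progenitor markers had 1 of 6 higher, Prom1 (means from 4.87 to 5.74 in mutant livers and from 3.97 to 4.50 in control livers). Prom1 differed by 4.03 and the other biliary markers by -0.09 to 0.81, with Krt7 below the floor of the arrays on 8 arrays and Cftr on 9. Lymphocyte markers had 1 of 4 higher, Ptprc, with 1 of the 4 below the floor on each array (means from 4.65 to 5.21 in mutant livers and from 4.51 to 4.91 in control livers). Erythroid markers had 0 of 2 called (means from 7.19 to 7.99 in mutant livers and from 7.61 to 8.71 in control livers). The part of these other liver cells in the differences of the initiation factors was not tested.

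Upstream sequence was at hand for 31 of the 40 members. The windows, from RefSeq on GRCm38.p6, run from 250 bases before to 50 bases after each annotated start and were searched for the E-box CACGTG, which reads the same on both strands and is the site bound by Myc and its relatives. It was present for 9 of the 31 genes (29.0%), against 11.3% of 10011 tested genes with a window. Among members called lower 3 of 10 held it (30%), and among those not called 6 of 21 (28.6%). The 3 called genes that hold it, Eif4e, Eif1b and Eif5a, are shown because the cap-binding protein, the start codon factor and the hypusine protein share the letters while they act at different steps. The 250 bases before the start are printed on the gene's strand, with the E-box in capitals.
Eif4e: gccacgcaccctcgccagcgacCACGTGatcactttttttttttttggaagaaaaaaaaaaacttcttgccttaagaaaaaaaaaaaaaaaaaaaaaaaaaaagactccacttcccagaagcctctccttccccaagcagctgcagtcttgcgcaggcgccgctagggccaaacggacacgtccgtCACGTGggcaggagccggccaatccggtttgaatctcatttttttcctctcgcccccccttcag
Eif1b: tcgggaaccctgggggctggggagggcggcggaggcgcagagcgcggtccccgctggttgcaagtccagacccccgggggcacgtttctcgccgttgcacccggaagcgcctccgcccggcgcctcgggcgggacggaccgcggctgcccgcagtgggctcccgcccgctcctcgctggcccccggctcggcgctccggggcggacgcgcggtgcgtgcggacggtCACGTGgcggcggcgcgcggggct
Eif5a: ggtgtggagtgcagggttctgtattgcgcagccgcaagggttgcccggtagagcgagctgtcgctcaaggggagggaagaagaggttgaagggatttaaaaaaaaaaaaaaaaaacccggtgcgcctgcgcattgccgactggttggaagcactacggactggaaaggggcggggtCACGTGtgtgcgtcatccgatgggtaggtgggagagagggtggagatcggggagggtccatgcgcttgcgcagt
The Eif4e stretch is chr3:138527018-138527267 on the plus strand, with E-boxes that begin 228 and 64 bases before the start, and it is 1 of 2 windows of the gene. The Eif1b stretch is chr9:120492356-120492605 on the plus strand, with its E-box 24 bases before the start. The Eif5a stretch is chr11:69921387-69921636 on the minus strand, with the E-box 74 bases before the start, and 3 of the 6 windows of the gene hold one. These windows partly overlap, and the E-box 185 bases before another start is the same site as the one shown. Differences were -0.33, -0.68 and -0.38 for these 3 genes, and members with the motif that were not called include Eif4h at 0.12, Eif3k at -0.03 and Eif4a1 at -0.24. A match is a description of letters and not of binding.

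Of the 4 genes related to eIF1 and eIF1A, the factors of start codon scanning, 3 were called lower and Eif1a was not, with a median difference of -0.72 over the 4. Eif1ax, the X-linked gene of eIF1A, which keeps the scanning ribosome open and helps it read the start codon, had 9.63, 9.17, 9.37, 9.52 and 10.08 in mutant livers, against 10.15, 10.37, 10.38, 10.38 and 10.34 in control livers. All mutant arrays lay below all control arrays, and the difference was -0.77 (SE 0.15, adjusted p = 0.0115). A second probe set gave -0.82 and was also called, and another, near the floor of the arrays, gave -0.13. With the sex of the animals as a term in the model the difference was again -0.77 (adjusted p = 0.0169).

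Eif1b, whose E-box lies 24 bases before its start, is a close relative of eIF1, the factor that rejects wrong start codons, and had 8.93, 8.62, 8.87, 8.81 and 9.47 in mutant livers, against 9.72, 9.64, 9.63, 9.53 and 9.58 in control livers. Again the groups did not overlap, with 1 mutant array close to the lowest control, and the difference was -0.68 (SE 0.14, adjusted p = 0.0129). Eif1ad, which encodes a protein with an eIF1A-like domain, had 8.07, 7.32, 7.99, 7.76 and 8.92 in mutant livers, against 8.80, 8.90, 8.84, 9.14 and 8.90 in control livers. Here 4 mutant arrays lay below all controls and mutant replicate 5 lay within them. The difference of -0.91 (SE 0.25, adjusted p = 0.0330) was -1.13 without mutant replicate 5 (adjusted p = 0.00112), and its call was lost without any 1 of the other 9 arrays (adjusted p up to 0.0770). Eif1a, the autosomal eIF1A gene, whose probes may share signal with Eif1ax, had 9.72, 9.62, 9.67, 10.28 and 9.89 in mutant livers, against 10.30, 10.10, 10.02, 10.13 and 10.03 in control livers. Its 4 lower mutant arrays lay below the controls and mutant replicate 4 lay near the top control. The difference was -0.28 (SE 0.12, adjusted p = 0.140), and -0.39 (adjusted p = 0.0243) without mutant replicate 4.

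Among the measured carriers of the initiator tRNA, which do not include Eif2s1, 1 of 3 was lower. Eif2a, which encodes an alternative tRNA-binding factor and not a subunit of eIF2, had 8.59, 8.53, 8.60, 8.53 and 8.62 in mutant livers, against 8.79, 8.96, 8.91, 8.86 and 9.01 in control livers. Spread within each group was small and the groups did not overlap, with a difference of -0.33 (SE 0.05, adjusted p = 0.00661). Its other probe set differed by -0.12 and was not called, and with the mean of the probe sets the adjusted p was 0.150. Eif2s2, the beta subunit of eIF2, differed by -0.21 (SE 0.09, adjusted p = 0.128) on its brightest probe set and was called on another of its 6 probe sets, at -0.27 with groups that did not overlap, while a further one gave 0.04. Eif2d, which can place tRNA on the small subunit without eIF2, differed by 0.02 (SE 0.06, adjusted p = 0.869).

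All 5 members of eIF2B, the complex that exchanges GDP for GTP on eIF2, had negative differences, and 1 was called. Eif2b1, the regulatory alpha subunit, had 7.01, 7.28, 7.71, 7.41 and 7.78 in mutant livers, against 8.22, 7.69, 7.91, 8.08 and 7.91 in control livers. Groups overlapped through control replicate 2, and the difference was -0.52 (SE 0.16, adjusted p = 0.0451). The call stood only without mutant replicate 3 or 5 or control replicate 2 among the fits with 1 array left out (adjusted p up to 0.0973 in the others). Eif2b3, the gamma subunit, had a difference of nearly the same size at -0.51 (SE 0.17, adjusted p = 0.0585), and -0.58 (adjusted p = 0.0318) without mutant replicate 5 and -0.60 (adjusted p = 0.0434) without control replicate 5. After any of the 3 rescalings Eif2b3 passed as well. Eif2b5, the catalytic epsilon subunit, differed by -0.16, and Eif2b2 and Eif2b4, the beta and delta subunits, by -0.08 and -0.07, with adjusted p from 0.358 to 0.658 for these 3. A dimmer probe set of Eif2b2 was called, at -0.16.

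The subunits of eIF3, the largest initiation factor and the platform on the small ribosomal subunit, moved within a narrow range. Of 11 measured subunits 3 were lower and 0 higher, 10 of 11 differences were negative, and they ran from -0.33 to 0.13. The median of the 11 subunits relative to the control means was -0.22, -0.16, -0.15, -0.15 and -0.13 in mutant replicates 1 to 5, and lay between -0.04 and 0.08 in control livers. All mutant arrays lay below all control arrays on this median.

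Eif3h, a subunit that the factor of budding yeast lacks, had 11.43, 11.52, 11.61, 11.52 and 11.58 in mutant livers, against 11.79, 11.79, 11.76, 11.78 and 11.88 in control livers. All mutant arrays lay below all control arrays, and the difference was -0.27 (SE 0.05, adjusted p = 0.00859). Eif3i, a WD-repeat subunit, had 11.88, 11.90, 12.05, 11.88 and 12.03 in mutant livers, against 12.07, 12.32, 12.14, 12.31 and 12.39 in control livers. Its groups touched without overlap at a difference of -0.30 (SE 0.07, adjusted p = 0.0219), and the other probe set gave -0.41 and was also called. Without mutant replicate 1 or 4 or control replicate 4 the adjusted p was between 0.0514 and 0.0533.

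Eif3m, another subunit of the complex, had 9.94, 10.02, 10.08, 10.13 and 10.24 in mutant livers, against 10.16, 10.31, 10.41, 10.35 and 10.30 in control livers. Mutant replicate 5 lay above the lowest control, and the difference of -0.22 (SE 0.07, adjusted p = 0.0449) passed narrowly. It was called in 5 of 21 other settings, and among the fits with 1 array left out only without mutant replicate 5 or control replicate 1 (adjusted p up to 0.0961). The largest negative difference of the complex belonged to Eif3b, the scaffold of its WD-repeat module, at -0.33 (SE 0.12, adjusted p = 0.0806). Eif3a, the large scaffold subunit, differed by -0.21 (SE 0.07, adjusted p = 0.0531) with groups that did not overlap, and its other 3 probe sets gave -0.22, -0.32 and -0.31, the first of them called. Without mutant replicate 4 the Eif3a difference was -0.25 (adjusted p = 0.0428), and Eif3f differed by -0.15 in all arrays (adjusted p = 0.0619) and by -0.19 without control replicate 3 (adjusted p = 0.0353). Eif3l differed by -0.17, Eif3e by -0.12, Eif3d by -0.10 and Eif3k by -0.03, with adjusted p from 0.0694 to 0.782. Eif3c, another core scaffold, was the exception in sign at 0.13 (SE 0.09, adjusted p = 0.313), with 0.13 to 0.23 on its 4 probe sets.

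Of the helicase group, 1 of 4 was lower. Eif4b, which stimulates the helicase eIF4A, had 10.39, 10.48, 10.55, 10.43 and 10.54 in mutant livers, against 10.81, 10.69, 10.62, 10.80 and 10.65 in control livers. The groups did not overlap, and the difference was -0.23 (SE 0.06, adjusted p = 0.0211), with -0.31 on each of its other 2 probe sets. After subtraction of the array median or the 75th percentile the difference was -0.22 and -0.21 and no longer passed (adjusted p = 0.104 and 0.0665), nor did it without mutant replicate 4 (adjusted p = 0.0512). The helicase gene Eif4a1 differed by -0.24 (SE 0.16, adjusted p = 0.318). Eif4a2, its paralog, differed by -0.21 (SE 0.08, adjusted p = 0.0765). The 3 probe sets of Eif4a1 ran from -0.24 to 0.06. Eif4h, a relative of Eif4b that also assists eIF4A, had a positive difference of 0.12 (SE 0.05, adjusted p = 0.0942), and another of its probe sets gave 0.13. A further bright probe set of Eif4h gave -0.005, and another, below the floor of the arrays on 9 arrays, gave -0.11.

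At the cap, 1 of 3 binding proteins and 1 of 3 genes of the inhibitor and transporter group were lower. Eif4e, the cap-binding protein, had 10.26, 9.93, 10.25, 10.15 and 10.15 in mutant livers, against 10.57, 10.50, 10.57, 10.41 and 10.32 in control livers. No mutant array reached the lowest control, and the difference was -0.33 (SE 0.08, adjusted p = 0.0208). A second probe set gave -0.17 and was not called, and without control replicate 3 the adjusted p was 0.0506. The mean of all 4 probe sets, of which only 2 lay above the floor, gave -0.14 (adjusted p = 0.0848). Eif4e2, a cap-binding relative that represses mRNAs, differed by -0.23 (SE 0.09, adjusted p = 0.103), and by -0.28 without mutant replicate 5 (adjusted p = 0.0360). Eif4e3, a further relative, differed by 0.19 (SE 0.08, adjusted p = 0.137), with 0.55 on its dimmer probe set.

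Eif4ebp1 encodes 4E-BP1, the eIF4E inhibitor that mTORC1 switches off by phosphorylation, and its difference was the largest of the 40. It had 8.89, 8.21, 8.61, 8.94 and 9.37 in mutant livers, against 10.11, 9.97, 9.40, 10.26 and 9.85 in control livers. The highest mutant array, replicate 5, and the lowest control array, replicate 3, nearly met, and the other arrays lay far apart. The difference was -1.11 (SE 0.22, adjusted p = 0.0128), a second probe set gave -1.09 and was also called, and with any 1 array left out it lay between -1.25 and -0.96 (adjusted p up to 0.0319). Eif4ebp2, its relative, differed by -0.44 (SE 0.15, adjusted p = 0.0666) with 4 mutant arrays below the lowest control, at 10.94, 10.45, 10.53 and 10.55 against 10.95, and mutant replicate 5 at 11.20. Without that array the difference was -0.56 (adjusted p = 0.00923), and 1 of its 3 probe sets was called, at -0.42. Eif4enif1, the eIF4E transporter of the nucleus and of P-bodies, differed by 0.10 (SE 0.10, adjusted p = 0.514).

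Neither of the scaffolds measured here was called, and Eif4g1 was not among the members. Eif4g2, also known as DAP5, resembles eIF4G but lacks its site for eIF4E and serves translation that does not depend on eIF4E. It had 13.69, 13.75, 13.54, 13.54 and 13.28 in mutant livers, against 13.32, 13.19, 13.18, 13.44 and 13.19 in control livers. The first 4 mutant arrays lay above all controls and replicate 5 lay among them, for a difference of 0.30 (SE 0.09, adjusted p = 0.0518), the largest positive difference of the 40. Without mutant replicate 5 it was 0.37 (adjusted p = 0.00780). A second bright probe set gave 0.30 and was called over all probe sets, where 5.8% of probe sets were called higher, and a dimmer one gave -0.03. Eif4g3, a closer relative of eIF4G1, differed by -0.03 (SE 0.13, adjusted p = 0.937), a value whose sign turned with the normalization.

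The factors of the later steps had 5 of 5 negative differences, and 2 were called. Eif5a, which carries the amino acid hypusine and helps ribosomes past difficult peptide bonds, had 14.73, 14.41, 14.63, 14.57 and 14.94 in mutant livers, against 14.95, 15.00, 15.10, 15.01 and 15.12 in control livers. The groups did not overlap, with mutant replicate 5 just below the lowest control, and the difference was -0.38 (SE 0.09, adjusted p = 0.0219). Its dimmer probe set gave -0.60 and was also called, and without mutant replicate 4 or control replicate 3 the adjusted p of the gene was 0.0539 and 0.0525. The highest value of any probe set was 16.65. Its paralog Eif5a2 lay near the floor on all arrays and differed by -0.08 (SE 0.08, adjusted p = 0.512).

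Eif5, which makes eIF2 hydrolyse GTP at the start codon, had 12.52, 12.53, 12.54, 12.70 and 12.71 in mutant livers, against 12.59, 12.92, 13.01, 13.05 and 13.13 in control livers. Control replicate 1 lay within the mutants, and the difference was -0.34 (SE 0.10, adjusted p = 0.0413). All 5 probe sets were negative, from -0.42 to -0.28. Over all probe sets 2 of them were called, but the brightest, read for the gene, was not (adjusted p = 0.0522). The gene's call stood only without mutant replicate 5 (adjusted p = 0.0332) or control replicate 1 (adjusted p = 0.0165) among the fits with 1 array left out (up to 0.0903 in the others). It was also lost with the most variable probe set (adjusted p = 0.260) and with sex as a term (adjusted p = 0.0546). Eif6, which keeps the large subunit from joining too early, differed by -0.43 (SE 0.14, adjusted p = 0.0587) with groups that did not overlap, and by -0.51 without mutant replicate 5 (adjusted p = 0.0275). Eif5b, the GTPase that joins the ribosomal subunits, differed by -0.08 (SE 0.09, adjusted p = 0.579).

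**Figure D4:**
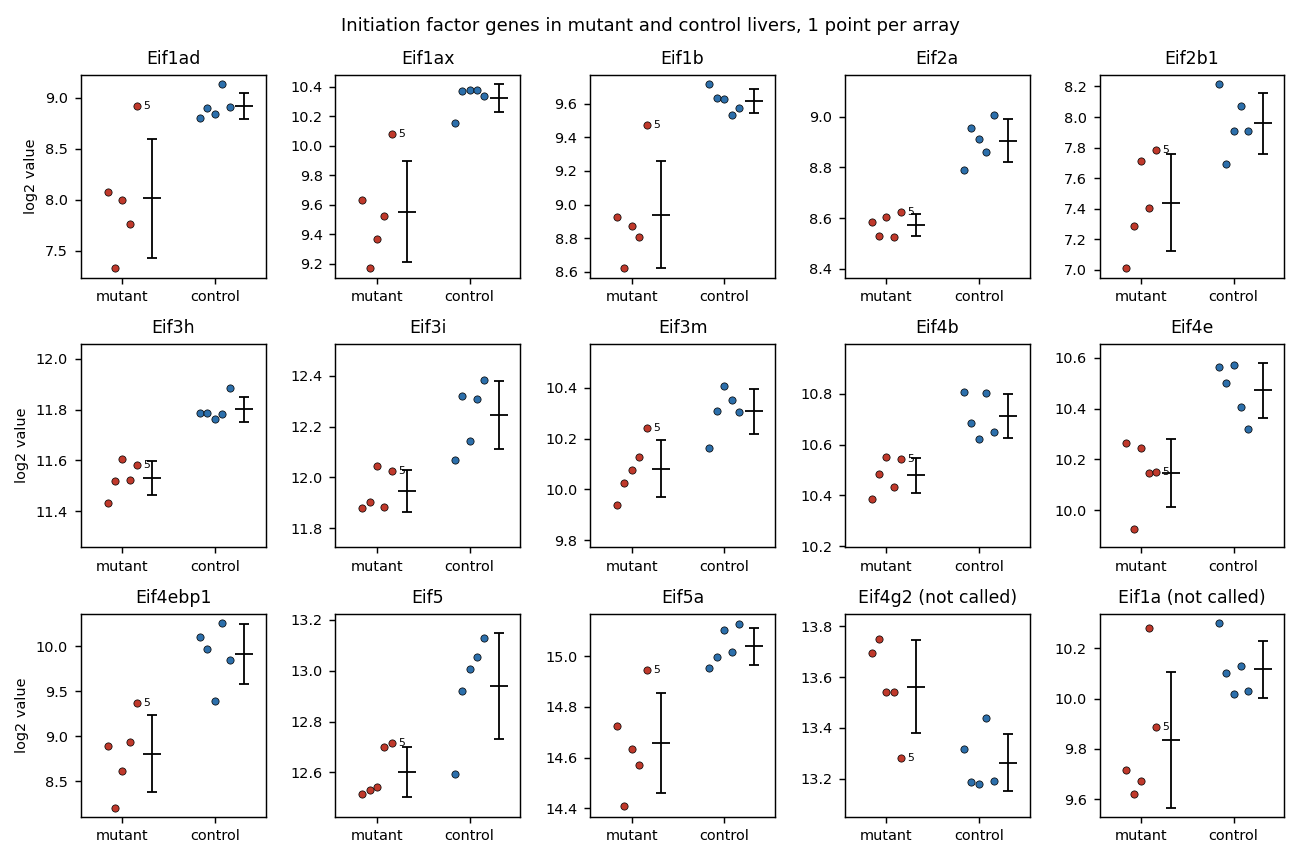
Log2 values (y axes, each with its own range) of the 13 initiation factor genes called lower and of Eif4g2 and Eif1a, with 1 point for each of 5 mutant arrays (left, red) and 5 control arrays (right, blue) and the mean with its SD beside them. The digit 5 marks mutant replicate 5, which is the highest mutant array for 9 of the 13 called genes.

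The shift of mutant replicate 5 differed between genes. Set against the mean shift of the other 4 mutants, its own came to a median share of 0.438 over the 13 called genes. For Eif4e that share was 0.987, for Eif2a 0.819 and for Eif3h 0.783, whereas it was 0.181 for Eif1b, 0.208 for Eif5a and 0.00050 for Eif1ad. Without this array 17 members were lower (42.5%) and 1, Eif4g2, was higher, while the share of all genes called lower was 17.5%, against 11.5% with all arrays. With mutant replicate 1, mutant replicate 4, control replicate 3 or control replicate 4 left out instead, 8 members were lower (20% of the members), and between 6.18% and 6.92% of all genes.

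Further probe sets of a gene ran the same way for the called members. Of the 13, 10 had more than 1 probe set with a mean above the floor of 3.60, the 25th percentile of all values, which left 14 further probe sets beside the ones that made the calls. All 14 were negative and 8 of them were called lower. More than 1 probe set was called for 7 of the 10 genes: Eif1ad, Eif1ax, Eif3i, Eif4b, Eif4ebp1, Eif5 and Eif5a. Over all 98 probe sets of the 40 members, 22 were lower and 1 was higher, beside 7.39% and 5.8% of all 25958 probe sets.

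Genes that act on the initiation factors or at the neighbouring steps were read from a list of 48, of which 46 were measured. Of these 3 were higher, 10 were lower and 33 were not called, with a median difference of -0.14. Over all 12366 genes 8.62% were called higher and 11.5% lower. Of the 10 decreases, 5 were accessory factors, 3 elongation factors, 1 a release factor and 1 a poly(A) binding protein.

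Accessory factors had 5 lower and 1 higher of 9. Mcts1 and Denr, which act as a pair to recycle the small subunit and to restart ribosomes after short upstream reading frames, were lower, with log2 differences of -0.79 (SE 0.17, adjusted p = 0.0156) and -0.67 (SE 0.12, adjusted p = 0.00859). Mcts1 ran from 10.21 to 11.23 in mutant livers and from 11.30 to 11.53 in control livers, and Denr from 9.13 to 9.79 in mutant livers and from 9.94 to 10.19 in control livers. For both genes all mutant arrays lay below all control arrays. Eif2d, a protein built like the joined pair, differed by 0.02. Ncbp1 of the nuclear cap-binding complex differed by -0.82 (SE 0.23, adjusted p = 0.0347). Its partner Ncbp2 differed by -0.60 (SE 0.10, adjusted p = 0.00724), but 2 further probe sets of similar brightness gave -0.16 and -0.24 and were not called, and the mean of the 3 gave -0.33 (adjusted p = 0.0166). Abce1, the ATPase that splits ribosomes, differed by -0.49 (SE 0.11, adjusted p = 0.0201). Ddx3x, an X-linked helicase that unwinds leader sequences, was higher by 0.44 (SE 0.12, adjusted p = 0.0354), a call that stood only without mutant replicate 5 or control replicate 3 among the fits with 1 array left out (adjusted p up to 0.0793). The Ncbp1 call was lost without mutant replicate 1 or 2 or control replicate 1, 3, 4 or 5 (adjusted p up to 0.0743), and the second probe set of Denr, far dimmer, gave 0.08. With the mean of its probe sets Denr differed by -0.29 (adjusted p = 0.0957) and Ddx3x by 0.32 (adjusted p = 0.0992).

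Regulators showed few calls. Of the eIF2alpha kinases 0 of 4 were called, at 0.22 for Eif2ak1, 0.21 for Eif2ak2, 0.55 for Eif2ak3 and -0.22 for Eif2ak4, although limma gave 2 of them an unadjusted p below 0.05. Of the phosphatase subunits 1 of 5 was higher, Ppp1cc, a catalytic subunit with many other partners, at 0.42 (SE 0.06, adjusted p = 0.00651). Mknk2, a kinase that phosphorylates eIF4E, was higher by 0.82 (SE 0.21, adjusted p = 0.0279), with 12.35, 12.52, 12.36, 13.02 and 12.31 in mutant livers, against 12.09, 11.01, 11.60, 11.93 and 11.83 in control livers. Each mutant array lay above each control array, though the call was lost without mutant replicate 2 or 4 or control replicate 3 (adjusted p between 0.0579 and 0.0615). Its dimmer probe set gave 0.81 and was not called, and the gene read from its most variable probe set was not called either (adjusted p = 0.0667). Mknk1, the other such kinase, differed by 0.16 (SE 0.07, adjusted p = 0.122). Of 10 mTORC1 and S6 kinase genes limma called 0, and 6 had an unadjusted p below 0.05, with differences between -0.56 and 0.22. Over all 12366 genes, 4310 had an unadjusted limma p below 0.05.

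Of 5 genes around the poly(A) tail 1 was lower, Pabpc4, a poly(A) binding protein, at -0.58 (SE 0.09, adjusted p = 0.00719). The main poly(A) binding protein, Pabpc1, differed by -0.11 (SE 0.06, adjusted p = 0.279). Of 6 elongation factor genes 3 were lower: Eef1d and Eef1b2, exchange factors of eEF1A, at -0.39 (SE 0.04, adjusted p = 0.00355) and -0.30 (SE 0.07, adjusted p = 0.0203), and Eef1e1 at -0.55 (SE 0.14, adjusted p = 0.0282). Eef1e1 is named with this family but belongs to the aminoacyl-tRNA synthetase complex, and its call stood only without mutant replicate 1 or 5 or control replicate 5 among the fits with 1 array left out (adjusted p up to 0.0640). The abundant factors Eef1a1 and Eef2 differed by 0.01 and -0.11 and were not called. Of the release factors, Gspt1, which is eRF3, was lower, with a log2 difference of -0.41 (SE 0.07, adjusted p = 0.00749). Its second brightest probe set was also called, at -0.39, and its other 4 were not. The mean of the 6 gave -0.18 (adjusted p = 0.137). Etf1, which is eRF1, differed by 0.22 (adjusted p = 0.177). Of the enzymes that make the hypusine of eIF5A limma called 0 of 2 (1 with an unadjusted p below 0.05, beside 4310 of all 12366 genes). Dohh differed by -0.41 (adjusted p = 0.0561) and Dhps by 0.21 (adjusted p = 0.499).

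**Figure D5:**
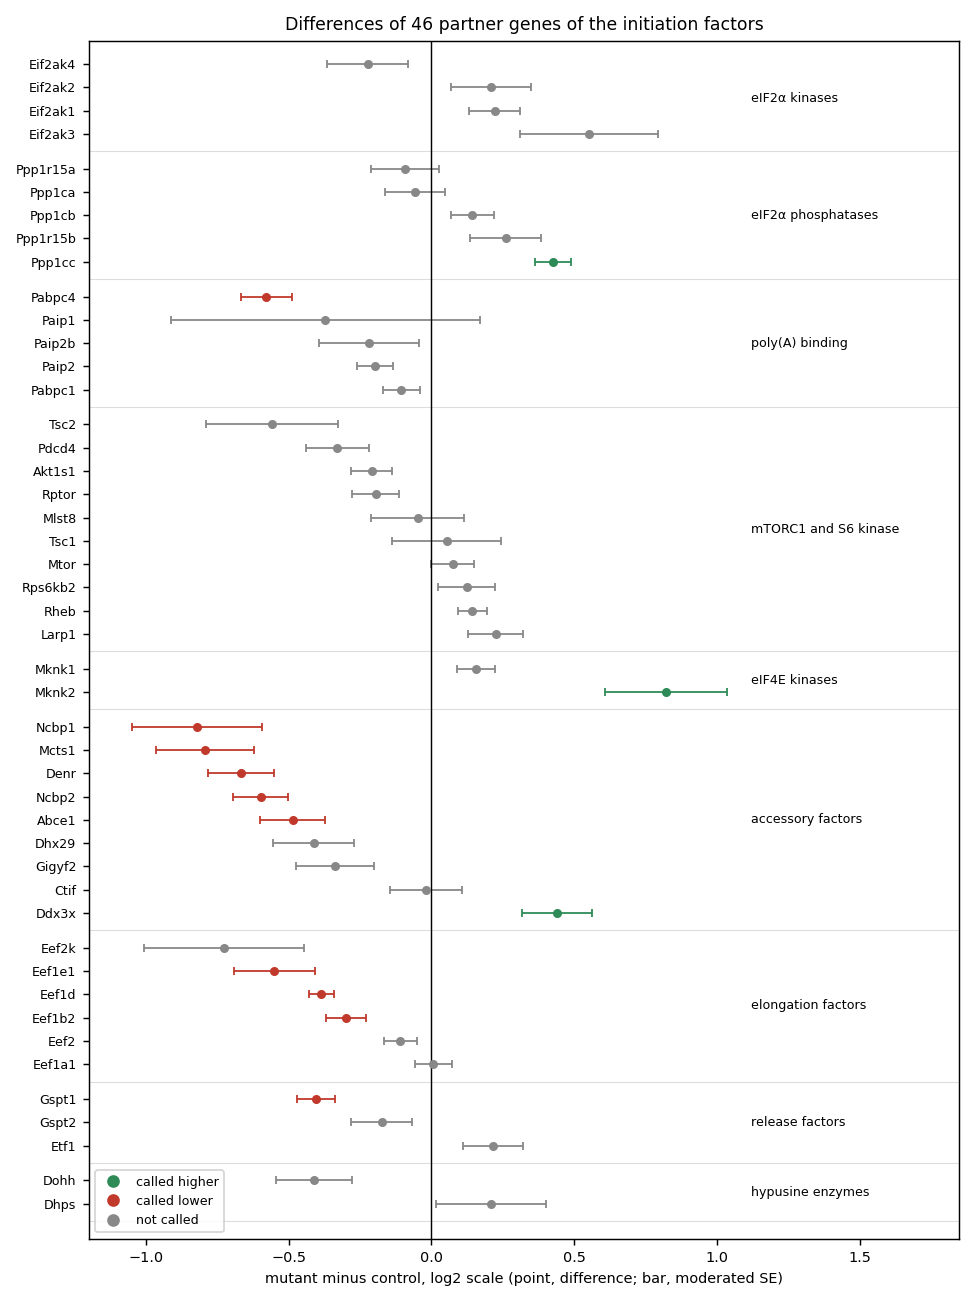
Difference between 5 mutant and 5 control livers on the log2 scale (x axis) for 46 genes that act on or beside the initiation factors (rows, by list), with the moderated standard error as a bar. The 10 genes called lower are red, with Ncbp1 and Mcts1 farthest left at -0.82 and -0.79, and the 3 called higher, Mknk2, Ddx3x and Ppp1cc, are green.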

How the data were processed

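Liver RNA of 5 mutant and 5 control mice was measured on 1 Affymetrix array each, per the labels. The authors deposited 1 table of log2 values for 25995 probe sets, and the log base was read from the values. How background was corrected and arrays were normalized is not stated in the labels. The number of arrays limits the precision. Titles number the livers separately, and the labels do not name litters, so p-values measure the spread between these samples.

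After 37 control probe sets were left out, 21613 probe sets carried 1 gene symbol, 638 several and 3707 none in the platform annotation. Symbols were looked up through gene identifiers (0 changed, 61 unmatched). The brightest probe set of each symbol gave 12366 genes. The main test was limma (version 3.58.1, run under R 4.3.3) with lmFit and eBayes, and Benjamini-Hochberg adjustment of its two-sided p-values. Every adjusted p in the text is from limma. On simulated data for the 12366 genes of this comparison it recovered 10 of 50 decreases of 0.25, 21 of 50 of 0.5, 37 of 50 of 1 and 50 of 50 of 2 on the log2 scale, with 10 unchanged genes among 128 calls. The changed genes were drawn from all genes, and they were far fewer than the 20.1% called in the data, so the adjusted cutoff was stricter there. Members also had a smaller median SD (0.12 in each group) than all genes (0.20 and 0.16). These recoveries are therefore not those of the members.

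Every member is named, and values of each array are given for each member called and for the smallest p of a complex with no call. Called partner genes are named and the others counted. Uncalled partner genes and Eif1a, Eif4ebp2 arrays given beyond this were chosen after their values were seen. The members, lists and tests were chosen with earlier results of these data known. Alternatives were 3 rescalings, leaving out dim genes, averaged or most variable probe sets, eBayes options, array weights, a replicate block and each array left out. Sex as a term was added after the data were seen. Deviations of same-numbered arrays correlated between -0.18 and 0.09, which gave no sign of pairing by replicate number. Such correlations cannot show whether same-numbered livers shared a litter or a batch, which the labels do not give. Promoter windows came from RefSeq on GRCm38.p6. A planned search of protein sequences was not run.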

Additional observations from a re-analysis of the deposited data

Results flagged for a closer look

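In 9 of 106 groups of 5 arrays, over the 40 members and the 13 called genes beside them, 1 array lay far from the other 4. Chance alone gives about 1 in 20 such groups. Of the 9, 2 were in mutant livers and 7 in control livers, and 0 of them were mutant replicate 5. In mutant livers, Eif3f was low in replicate 1, at 11.98 with the nearest other array at 12.06, and Eif5a2, near the floor, was low in replicate 4, at 3.58 against 3.68. In control livers, replicate 5 was high for Eif2b2 (8.90, nearest 8.65) and Eif3h (11.88, nearest 11.79) and low for Eif3d (10.19, nearest 10.34) and Eif4e3 (5.62, nearest 5.95). Control replicate 1 was low for Eif1ax (10.15, nearest 10.34) and high for Eif5a2 (4.05, nearest 3.69), and control replicate 2 was low for Ncbp1 (6.43, nearest 6.74).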

How the results depend on the processing

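All 13 called members kept the sign of their difference in all 21 other settings, and 4 of them, Eif1ax, Eif1b, Eif3h and Eif4ebp1, were called in every one. Of the 13 called genes beside them, 6 were called in every setting: Abce1, Eef1d, Mcts1, Ncbp2, Pabpc4 and Ppp1cc. The count of lower members lay between 10 and 19 in the settings with all arrays. The share of all genes called lower was 16.03% with array weights, where 19 members were lower, and 9.56% and 10.6% in the settings with 10 lower members. With 1 array left out, lower members numbered 8 to 17, higher members 0 to 1, lower partner genes 8 to 15, higher partner genes 1 to 4 and lower probe sets of members 11 to 31, and the median difference lay between -0.24 and -0.19. There was 1 higher member, Eif4g2, with quantile normalization, with the trend and robust options and with array weights. Over all genes, the share called lower with 1 array left out ran from 6.18% to 17.5%. Quantile normalization gave 5 higher partner genes, beside 1184 of all 12366 genes. Array weights gave 34 lower probe sets, and the mean of all probe sets of a gene gave a median difference of -0.15. The replicate block gave 11 lower members, with 9.03% of all genes called lower, and 13 lower probe sets. Shares over all probe sets were not counted in these settings. Of the mutant arrays only replicate 2 correlated best with its own number among the controls. The cause of these changes was not tested.

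Sign changed in some setting for 6 members, none of them called in any setting. Eif2d differed by -0.0396 with the mean of its probe sets and by -0.16 with the most variable one, which also gave 0.0431 for Eif2s2, -0.11 for Eif4h and 0.0699 for Eif5b. Eif4g3 differed by 0.0022 with quantile normalization, 0.0034 after subtraction of the 75th percentile, 0.0059 with the mean of its probe sets and 0.0011 with array weights. With 1 array left out, differences ran from -0.0046 to 0.0631 for Eif2d, from -0.0674 to 0.0011 for Eif3k and from -0.10 to 0.0486 for Eif4g3. Signal limits Eif5a2, which lay near the floor.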

Other observations

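The spread between animals differed from member to member. The median SD over the 40 members was 0.12 in mutant livers and 0.12 in control livers (n = 5 each), beside 0.20 and 0.16 over all 12366 genes. The SD was larger in mutant livers for 23 of the 40 members (57.5%) and for 61.4% of all genes. Among the members with wider mutant groups, the SD was 0.58 in mutant livers and 0.13 in control livers for Eif1ad. It was 0.34 in mutant livers and 0.097 in control livers for Eif1ax, and 0.32 in mutant livers and 0.070 in control livers for Eif1b.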
